A study of Rattus norvegicus with 23 samples.

Results

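The genes described here encode the synaptic vesicle and its release machinery. They were chosen by symbol: synaptotagmins (Syt), VAMPs, syntaxins (Stx), syntaxin-binding proteins (Stxbp), synapsins (Syn1 to Syn3), complexins (Cplx), Rab3 and Sv2 proteins by name, with Snap25, Syp, Nsf, Rims1, Rims2, Bsn, Pclo, Unc13a and the vesicular glutamate transporters Slc17a6 and Slc17a7. The rule found 62 genes on 65 of the 29211 probe sets of the array. Of these, 61 genes on 64 probe sets were among the 13339 probe sets tested, and Stx19, at signals of 28 to 42, was not. No measured value was used to choose them.

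A transmitter-filled vesicle fuses with the presynaptic membrane when SNARE proteins of the vesicle (synaptobrevin, Vamp2) and of the membrane (Snap25 and a syntaxin) zip into a bundle. Synaptotagmin senses the calcium that enters with the action potential, complexin and Munc13 proteins control the bundle, and the active zone proteins Rims1, Bsn and Pclo hold vesicles near calcium channels. The same gene families also hold SNAREs that serve endosomes, lysosomes, autophagosomes and secretion in cells other than neurons, so a VAMP or a syntaxin is not always a synaptic gene.

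Dorsal hippocampal RNA of male F344 rats was hybridised to Affymetrix Rat Gene 1.0 arrays, 1 array for each animal. Young controls (YC, n = 6) were 5 to 6 months old, sham-treated per the labels and without an injection per the methods text. The 3 aged groups were 21 months old, and each had received an adeno-associated virus in the CA1 field whose CaMKII promoter drives the transgene in excitatory neurons. Aged controls (AC, n = 5) received the eGFP vector, given at a higher titer than the other vector. Short-term (ST, n = 6) and long-term (LT, n = 6) rats received the FKBP1b vector. FKBP1b is a small immunophilin that binds the ryanodine receptor and steadies calcium release from intracellular stores. Labels and methods text disagree on the age at injection, 18 or 13 months for AC, 18 or 19 for ST and 12 or 13 for LT, and the labels give 3, 3 and 9 months of exposure. The animals on the ST and LT arrays were picked for FKBP1b expression above their group's median. AC and YC therefore differ in age, surgery and vector together, and ST and LT differ from AC in transgene and titer together, with age at injection and exposure differing too for LT by the labels and for ST by the methods text. The same 5 AC arrays served every comparison with FKBP1b rats.

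Median signals were 134 to 141 on all 23 arrays, and RNA integrity numbers were 8.9 to 9.8. The Fkbp1b probe set ran from 353 to 411 on YC arrays and from 364 to 458 on AC arrays, and reached 427 to 881 with the vector given late (ST) and 843 to 1217 with it given early (LT). Several arrays stood apart in marker genes of other cells or fields. Choroid plexus genes summed to 33493 and 42625 on AC replicates 3 and 4 and to 33505 and 34802 on LT replicates 2 and 5, against 3578 to 11676 on the other arrays. AC replicate 5 read 580 for the CA1 marker Wfs1 and 333 for the dentate marker Prox1, where the other 22 arrays read 2444 to 2996 and 632 to 950. The CA1 markers did not move together on it. Pou3f1 was also below the other arrays (173 against 241 to 306), Fibcd1 was above them (905 against 550 to 693), and Mpped1 and Lefty1 lay inside their range. Its 11 microglial genes summed to 11322, against 5218 to 5513 in YC and 6318 to 7964 on the remaining aged arrays, where ST replicate 2 (7081) lacks a value for C1qa and C1qc. Oligodendrocyte genes summed to 20947 on AC replicate 5 and to 25536 to 29318 on the other 22 arrays. For the members, counts and calls are given with and without some or all of these 5 arrays. Calls in the wider set of release genes are given with all arrays only. Whole tissue was used, so fewer cells of a type and less RNA for each cell cannot be told apart.

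The comparison of AC with YC addresses aging together with surgery and the eGFP vector, which it cannot separate. Vamp5, Vamp8 and Stx17 were higher in AC, Syt10 and Stx11 were lower, and none of these is a subunit of the fusion bundle of synaptic vesicles. In all, 5 of 64 member probe sets were called at an adjusted p under 0.05 (limma, Benjamini-Hochberg over all 13339 probe sets), where 9.75% of all tested probe sets were called. By direction, 3 were higher against 5.56% of all probe sets and 2 were lower against 4.18%. The median difference of the members was 0.00 log2 units and that of all probe sets -0.01. At an unadjusted p under 0.05, 19 of 64 passed, against 27.4% of all. AC replicate 5 bore on these counts most: without it 13 members were called, where 11.9% of all probe sets were. The count was 8 without AC replicate 1 (14% of all). It was 3 without YC replicate 3, YC replicate 4 or AC replicate 2 (7.24% to 8.7% of all). Without YC replicate 6 or AC replicate 3 the count was 2 (6.93% and 5.97% of all). It was 3 once the 4 arrays rich in choroid plexus genes were omitted, with 2 of the members in common. The share of all for that count is not given here, and by the F test of the same fit 3 members and 2.53% of all were called. With array medians made equal 9 members were called, 2 higher and 7 lower, beside 507 higher and 1200 lower among all 13339 probe sets. With quantile normalization 3 members were called, of which 2 were higher, beside 668 higher and 668 lower among all.

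Vamp5, a VAMP first known from muscle, read higher on every aged array than on any YC array. Its YC signals ran from 113 to 128 with a median of 122, and the AC signals were 156, 154, 135, 148 and 169. ST arrays read 129 to 150 (median 143) and LT arrays 133 to 148 (median 147). No aged array, with either vector, came down to the highest YC array. Vamp5 rose from 120 ± 5.82 in YC (SD, n = 6) to 152 ± 12.4 in AC (n = 5), a log2 difference of 0.34 ± 0.05 (SE; adjusted p = 0.00047), or 26.4% with a 95% interval of 17.6% to 35.9%. The differences of ST and of LT from YC were 0.23 ± 0.05 (adjusted p = 0.0094) and 0.26 ± 0.05 (adjusted p = 0.011). Of the 39 alternative settings none removed any of these 3 calls, and the AC difference ranged from 0.28 to 0.41. The summed microglial signal did not overlap between YC and aged arrays either, although single genes of that list did (Itgam 97 to 108 in YC and 96 on LT replicate 3), and endothelial genes summed to between 2150 and 2300 on YC arrays, 2429 and 3265 on AC arrays, 2293 and 2486 on ST arrays and 2279 and 2844 on LT arrays. The part of those cells in the Vamp5 difference was not tested.

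Vamp8 (endobrevin), which serves late endosomes and secretion in non-neuronal cells, lies beside Vamp5 in the RefSeq gene order. Its signals were low, at 61 to 75 in YC (median 62), and 61, 80, 104, 112 and 89 on the AC arrays. ST arrays read 68 to 83 (median 71.5) and LT arrays 67 to 95 (median 75.0). Replicate 1 of AC read as low as the lowest YC arrays, so the groups overlapped, and the highest AC and LT signals came from the 4 arrays high in choroid plexus genes. Vamp8 was 0.42 ± 0.12 log2 units higher in AC than in YC (adjusted p = 0.029). Without those 4 arrays the difference was 0.21 ± 0.10 (adjusted p = 0.23), and with the choroid plexus score as a covariate it was 0.25 ± 0.09 (adjusted p = 0.092). Without the 5 arrays that stand apart it was 0.09 ± 0.10 (adjusted p = 0.67). The call was also lost with only the groups compared (adjusted p = 0.10) and on leaving out YC replicate 1, 2, 3 or 6 or AC replicate 3 or 4, with adjusted p values of 0.053 to 0.093.

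**Figure D1:**
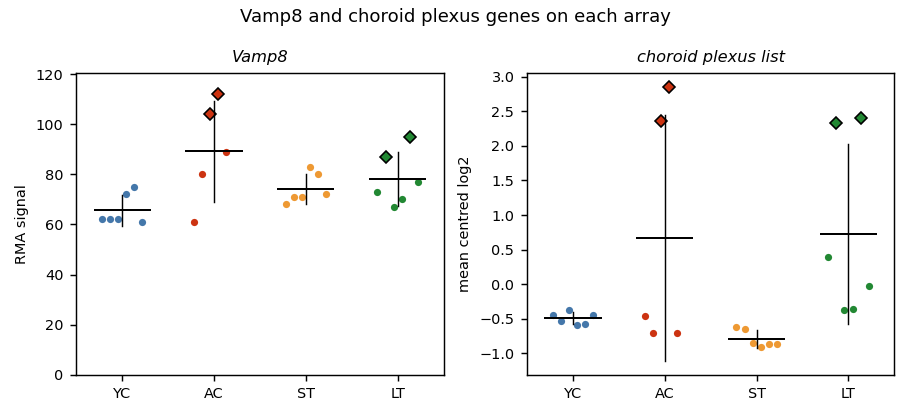
Vamp8 signal (left, RMA signal on a linear axis from 0) and the mean centred log2 score of the choroid plexus genes (right) on each array; lines give the group mean ± SD and diamonds mark AC replicates 3 and 4 and LT replicates 2 and 5. The 4 diamonds lie above 2.3 in the score and are the highest Vamp8 signals of their groups, at 104 and 112 in AC and 87 and 95 in LT.

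Stx17, the syntaxin of the autophagosome that meets Vamp8 on the lysosome, also rose. YC arrays read 230 to 246 (median 237) and AC arrays 250, 269, 271, 259 and 270, so the groups did not overlap. The ST range of 220 to 264 and the LT range of 226 to 256 covered the YC range. The log2 difference of AC from YC was 0.15 ± 0.04 (adjusted p = 0.029). The adjusted p was 0.050 to 0.071 on leaving out YC replicate 3, 4 or 6 or AC replicate 2 or 3, 0.0503 with array medians made equal, 0.065 with quantile normalization, 0.096 without the 4 choroid-rich arrays and 0.23 without the 5 arrays that stand apart. Stx11, a syntaxin of granule release in immune cells, was 0.23 ± 0.07 log2 units lower in AC (adjusted p = 0.037). Its signals were close to the minimum of 40 used for testing: 59 to 73 in YC (median 63), and 52, 52, 57, 55 and 61 in AC. Omitting any of 7 arrays (YC replicates 4 to 6 and AC replicates 1 to 4) gave adjusted p values of 0.055 to 0.080. The call was also lost without the 4 choroid-rich arrays (-0.24, adjusted p = 0.078), with their score as a covariate (-0.19, adjusted p = 0.10), with quantile normalization (-0.17, adjusted p = 0.100), with a robust variance trend (adjusted p = 0.051) and with only the groups compared (adjusted p = 0.080). AC replicate 5, the highest in microglial genes, gave the highest Stx11 signal of its group.

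Syt10, a synaptotagmin that times the calcium-dependent release of growth factor vesicles in olfactory neurons, was the member lowered most. YC arrays read 252 to 312 (median 279), and AC arrays 235, 224, 236, 237 and 160. All AC arrays lay under the lowest YC array, with replicate 5 far under the others. Syt10 fell by 0.37 ± 0.09 log2 units (SE; adjusted p = 0.013), a change of -22.7% with a 95% interval of -32.0% to -12.2%. Without AC replicate 5 it fell by 0.26 ± 0.07 (adjusted p = 0.019), so the size of the difference rested in part on that array. No single array took the call away, but the 5 arrays that stand apart together did (log2 difference -0.29, adjusted p = 0.12), as did a fit of only the groups compared (-0.37, adjusted p = 0.063). ST arrays at 194 to 260 and LT arrays at 216 to 258 overlapped both other groups.

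**Figure D2:**
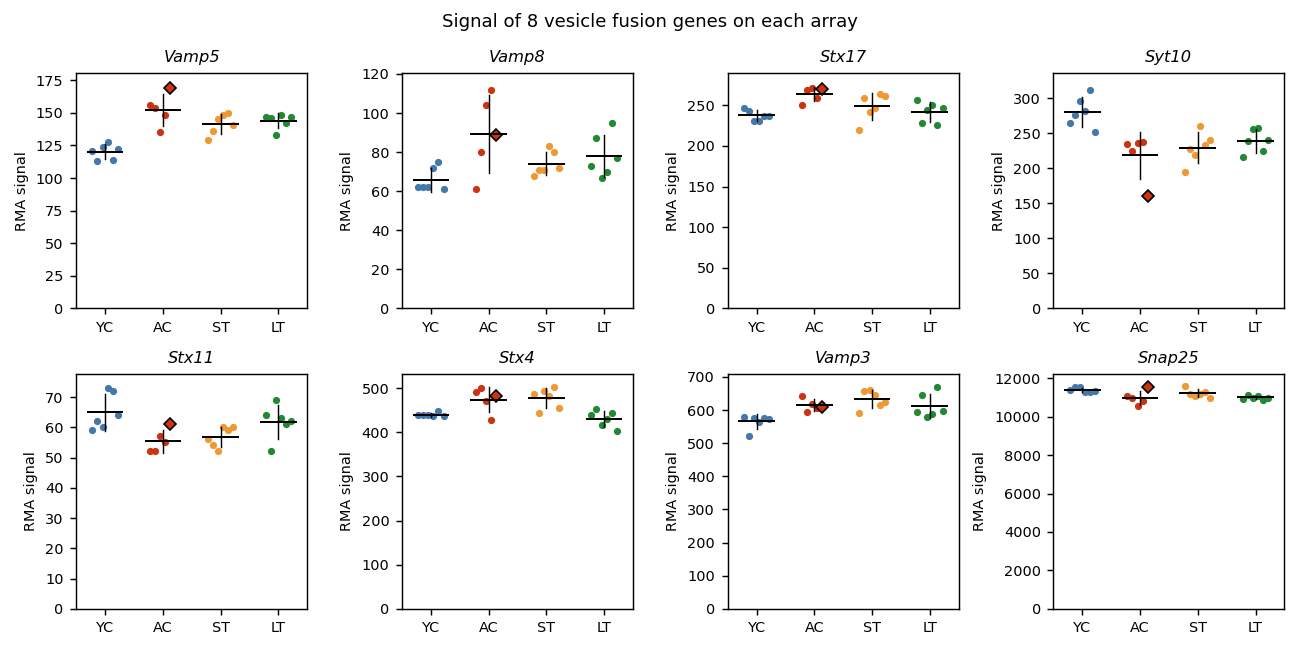
RMA signal (linear axes from 0) of 8 member genes on each array, grouped as YC, AC, ST and LT; lines give the mean ± SD and the diamond is AC replicate 5. Vamp5 lies at 129 or above on every aged array and at 128 or below on every YC array, whereas Snap25 stays between 10548 and 11617 on all arrays.

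Promoter windows, 250 bases before to 50 after the annotated start, are shown for the 4 genes called in AC against YC that have one in the RefSeq table (rat build GRCr8). They were searched on both strands for the GC box (GGGCGG), the cAMP response element (TGACGTCA) and the left arm of the element bound by the repressor REST (TTCAGCACC). Capitals mark GC boxes on either strand, and in Vamp5 a pair of them overlaps. Vamp5 and Vamp8 are neighbours on chromosome 4 and are read from the same strand. The windows are Vamp5 at chr4:105993198-105993497 (minus strand), Vamp8 at chr4:106005593-106005892 (minus strand), Stx17 at chr5:67241493-67241792 (plus strand) and Stx11 at chr1:9140170-9140469 (minus strand), each written 5′ to 3′ on the gene's strand.
Vamp5: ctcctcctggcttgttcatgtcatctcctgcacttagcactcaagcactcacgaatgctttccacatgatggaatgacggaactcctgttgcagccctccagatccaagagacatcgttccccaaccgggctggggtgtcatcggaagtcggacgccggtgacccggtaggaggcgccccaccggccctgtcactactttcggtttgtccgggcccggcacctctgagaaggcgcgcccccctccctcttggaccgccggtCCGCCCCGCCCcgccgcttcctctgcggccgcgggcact
Vamp8: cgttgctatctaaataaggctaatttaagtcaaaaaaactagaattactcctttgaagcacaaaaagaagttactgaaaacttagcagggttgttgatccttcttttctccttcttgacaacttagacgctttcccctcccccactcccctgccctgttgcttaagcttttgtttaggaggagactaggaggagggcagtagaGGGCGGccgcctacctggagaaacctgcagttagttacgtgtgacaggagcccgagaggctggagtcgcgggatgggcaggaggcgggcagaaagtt
Stx17: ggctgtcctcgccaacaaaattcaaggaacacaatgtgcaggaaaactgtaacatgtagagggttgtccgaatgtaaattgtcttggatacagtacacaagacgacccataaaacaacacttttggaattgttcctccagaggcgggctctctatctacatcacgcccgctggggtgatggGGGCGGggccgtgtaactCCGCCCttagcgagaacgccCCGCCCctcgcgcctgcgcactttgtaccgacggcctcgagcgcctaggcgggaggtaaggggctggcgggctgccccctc
Stx11: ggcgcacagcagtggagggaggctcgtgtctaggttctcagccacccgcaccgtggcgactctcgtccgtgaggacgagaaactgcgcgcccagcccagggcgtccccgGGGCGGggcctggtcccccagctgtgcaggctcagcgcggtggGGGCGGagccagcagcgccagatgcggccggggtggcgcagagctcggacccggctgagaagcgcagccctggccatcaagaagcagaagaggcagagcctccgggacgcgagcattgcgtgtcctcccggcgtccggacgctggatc
None of the 4 windows held the cAMP response element or the REST arm. GC boxes were present in all 4, in 38 of the 51 member genes with a window (74.5%) and in 33.1% of all 33469 windows. The cAMP response element was found in 2 members (3.92%, against 1.83% of all) and the REST arm in 1 (1.96%, against 0.356%). These matches describe letters in the windows only. The RefSeq table used here lacks a window for Rims2, Snap25, Syn3, Syt5, Syt7, Syt10, Syt12, Syt13, Syt17, Vamp3 and Vamp7.

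Of the SNAREs that drive vesicle release, Snap25, Vamp1, Vamp2 and Stx1a were measured, and none was called in AC against YC by limma with all arrays. Snap25 read 11290 to 11560 in YC (median 11381) and 11079, 10995, 10548, 10813 and 11548 in AC. All AC arrays but replicate 5 lay under the lowest YC array. The log2 difference was -0.05 ± 0.02 (adjusted p = 0.14), with a 95% interval of -6.87% to -0.340%. Without AC replicate 5 it was -0.07 ± 0.02 and passed (adjusted p = 0.038), and it passed with array medians made equal (-0.08, adjusted p = 0.036) and with array weights (adjusted p = 0.035), but without the 4 choroid-rich arrays it was -0.03 ± 0.03 (adjusted p = 0.60). Vamp2, the vesicle SNARE, read 4200 to 4301 in YC (median 4282) and 4226, 4107, 4023, 3913 and 4047 in AC, and only AC replicate 1 reached the YC range. Its difference of -0.07 ± 0.02 did not pass (adjusted p = 0.069), nor did it without AC replicate 5 (adjusted p = 0.081), though it passed by the one-way analysis of the methods (adjusted p = 0.023), with a robust variance trend (adjusted p = 0.032), without AC replicate 1 (-0.08, adjusted p = 0.027) and with array medians made equal (-0.10, adjusted p = 0.022). Without the 4 choroid-rich arrays it was -0.05 (adjusted p = 0.33). Both probe sets of Stx1a, the membrane syntaxin, read higher on AC replicate 5 (1531 and 1552) than on any other array, and their AC differences were 0.04 ± 0.08 and 0.02 ± 0.08.

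Nsf, the ATPase that takes spent SNARE bundles apart, was 0.08 ± 0.03 log2 units lower in AC with an adjusted p of 0.097, and 0.10 ± 0.03 lower with an adjusted p of 0.041 once AC replicate 5 was left out. It also passed with array medians made equal (-0.11, adjusted p = 0.028) and with array weights (adjusted p = 0.043), and without the 4 choroid-rich arrays it was -0.04 ± 0.03 (adjusted p = 0.50). Cplx1 and Cplx2, the complexins, differed by 0.12 ± 0.08 and -0.03 ± 0.05. Unc13a, the Munc13 protein that readies vesicles, differed by 0.00 ± 0.05, with a 95% interval of -7.05% to 8.31%. Syt1, the calcium sensor of fast release, read 7338 to 7613 in YC (median 7446) and 7388, 7150, 7041, 7032 and 7872 in AC. AC replicates were on both sides of the YC range, and the interval of the difference was -6.06% to 1.89%. Syt11 and Syt13, synaptotagmins that do not bind calcium, were at -0.07 ± 0.03 (adjusted p = 0.090) and -0.18 ± 0.08 (adjusted p = 0.12).

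Vesicle proteins did not differ beyond the test either. Syp, the vesicle membrane protein synaptophysin, read 4730 to 4919 in YC (median 4830) and 4838, 4754, 4760, 4414 and 5479 in AC, with an interval of -4.90% to 5.95%. The synapsins Syn1 and Syn2, which tether vesicles to actin, differed by 0.03 ± 0.05 and 0.10 ± 0.07. Slc17a7 (VGLUT1), the transporter that loads glutamate in hippocampal pyramidal cells, had an interval of -7.78% to 12.8%. Its thalamic counterpart Slc17a6 (VGLUT2) varied much more: 190, 234, 230, 143, 248 and 222 on YC replicates 1 to 6 and 118, 222, 186, 178 and 132 on AC replicates 1 to 5. Zic1, listed as a marker of thalamus and habenula, read 642, 1515, 1681, 759, 2009 and 1855 in YC and 588, 2139, 814, 1449 and 318 in AC on the same arrays. Replicates 1 and 4 of YC and replicates 1 and 5 of AC were the lowest of their group for both genes. Prkcd and Calb2 of the same marker list were lowest on the same arrays, but its other genes were not. Ntng1 was highest on YC replicate 1 (626) and AC replicate 1 (718), Chrnb4 was highest in AC on replicate 1 (138), and Lef1 was highest in YC on replicate 4 (165). The part of thalamic or habenular tissue in the Slc17a6 difference of -0.35 ± 0.18 (adjusted p = 0.21) was not tested. The 8 active zone and Rab3 genes ranged from -0.06 to 0.13, and Bsn (0.13 ± 0.07, adjusted p = 0.20) and Rims1 (0.11 ± 0.05, adjusted p = 0.21) passed only with the choroid plexus score as a covariate, at 0.22 (adjusted p = 0.032) and 0.16 (adjusted p = 0.044).

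For 14 of the 19 probe sets of 18 release genes fixed as the core of the machinery, the 95% interval of AC minus YC lay within ±0.2 log2 units. The same held for 34 of all 64 members and 7144 of all 13339 probe sets. A probe set's failure to pass does not show that it was the same in both groups, and the number of arrays sets the width of these intervals.

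**Figure D3:**
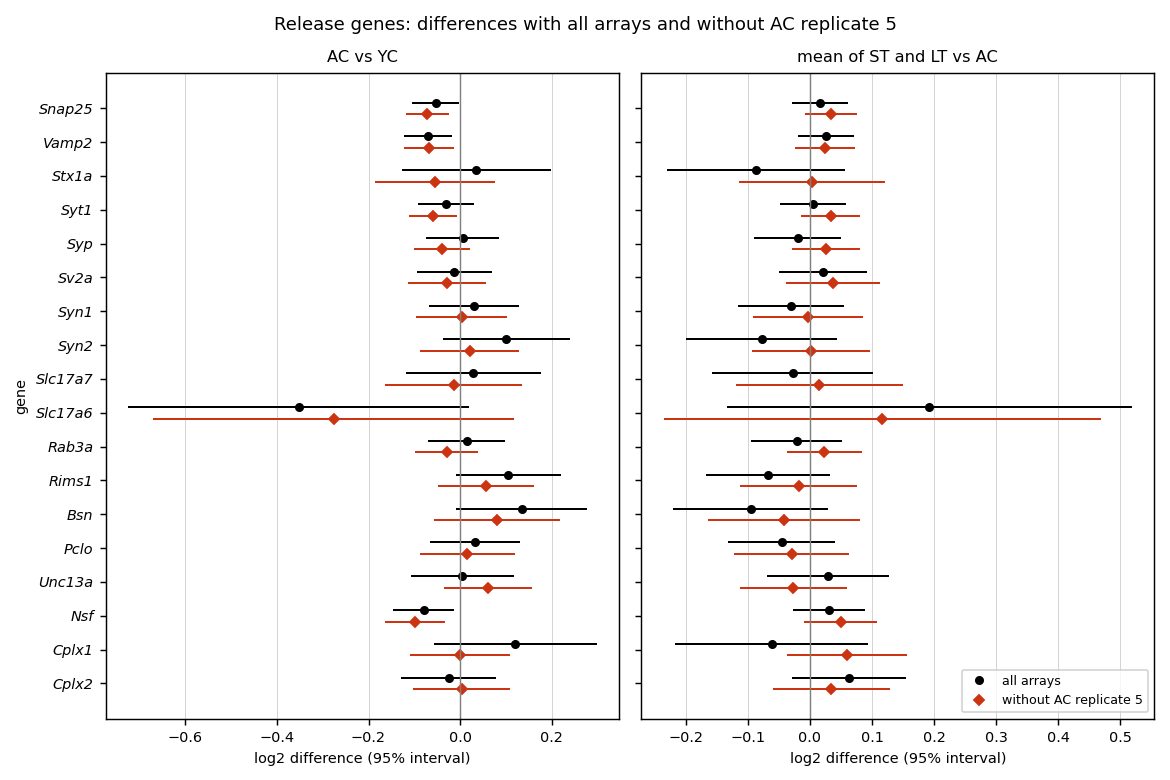
Log2 difference with its 95% interval for 18 release genes, AC minus YC (left) and the mean of ST and LT minus AC (right), with all arrays (black circles) and without AC replicate 5 (red diamonds). Most intervals cross 0; for Snap25 and Nsf in AC minus YC, leaving out the array moves the estimate from -0.05 to -0.07 and from -0.08 to -0.10.

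AC replicate 5 departed from its group further over the members than over all probe sets. This was not particular to the members, since many marker genes also lay outside the other 22 arrays. Among neuronal markers, Nefm was above them (1560 against 905 to 1114) and Camk2a below (6330 against 6932 to 7850). Uchl1 lay inside their range. Its median absolute distance from the other AC arrays was 0.23 log2 units over the members and 0.12 over all probe sets, whereas the other AC arrays were at 0.08 to 0.09 over the members. It lay above all other 22 arrays for 21 members and below them for 13, against 14.8% and 16% of all probe sets. Next was LT replicate 5, outermost for 13 members (above for 3.67% and below for 6.58% of all probe sets). AC replicate 4 was outermost for 12 (6.08% and 6.34% of all). Both are choroid-rich, but the other choroid-rich arrays, AC replicate 3 and LT replicate 2, were outermost for 8 and 4 members. Sv2b, a glycoprotein of the vesicle, read 3673 on AC replicate 5 and 1919 to 2194 on the other AC arrays. Syt17, a synaptotagmin relative without a membrane anchor, read 1493 against 729 to 849, and Cplx1 2227 against 1382 to 1537. The opposite held for Syt7, a slow calcium sensor, at 882 against 1498 to 1736, and for Syt10. With it, the median SD of the members within AC was 0.14 log2 units, and without it 0.08, close to 0.07 in YC, 0.07 in ST and 0.08 in LT. The same array had the low Wfs1 and Prox1, the low oligodendrocyte and the high microglial signals given above, and their part in these values was not tested.

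**Figure D4:**
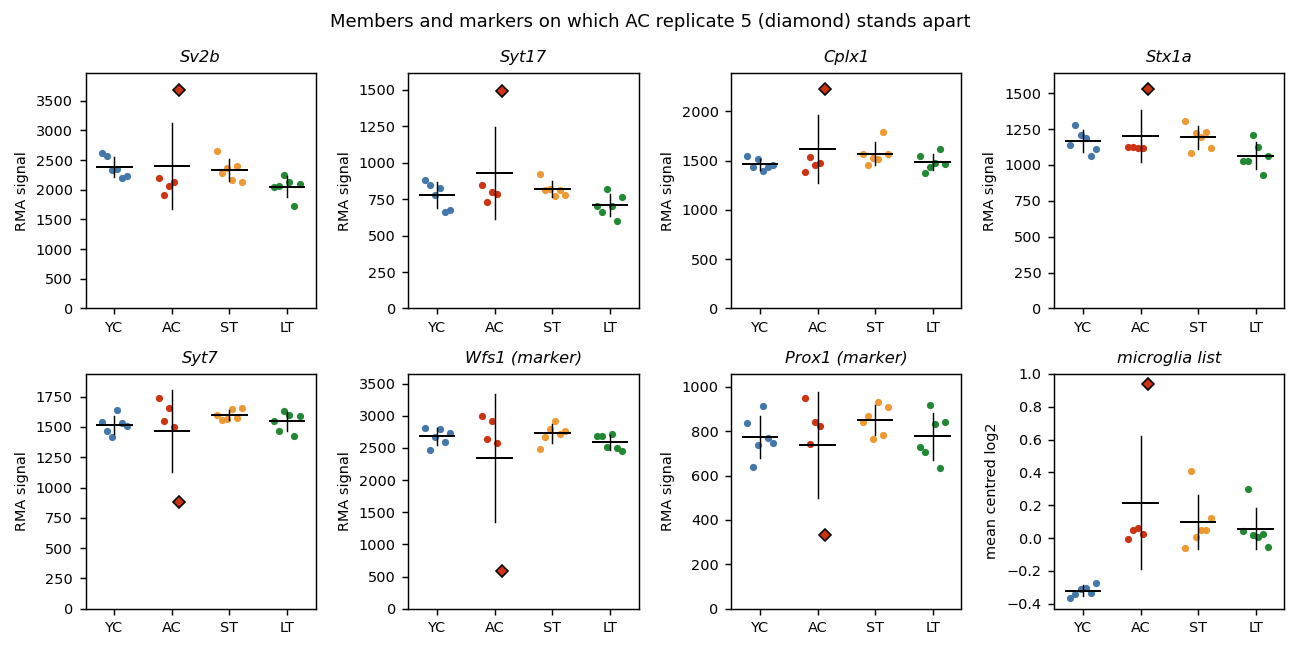
Signal of 5 members (Sv2b, Syt17, Cplx1, 1 of the 2 Stx1a probe sets, Syt7), of the field markers Wfs1 and Prox1, and the mean centred log2 score of microglial genes, on each array with the group mean ± SD. AC replicate 5 (diamond) is outermost in all 8 panels, for example at 580 for Wfs1 where every other array reads 2444 or more.

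Leaving out that array brought 8 further members past the threshold in AC against YC. SNAREs and regulators of other membranes were higher: Stx5 of the Golgi by 0.15 ± 0.03 (adjusted p = 0.0015), Stx6 of the trans-Golgi by 0.09 ± 0.03 (adjusted p = 0.044), and the syntaxin 4 partners Stxbp3 by 0.19 ± 0.05 (adjusted p = 0.017) and Stxbp4 by 0.37 ± 0.12 (adjusted p = 0.049). Lower were Snap25 and Nsf, as above, Vamp1 at -0.12 ± 0.04 (adjusted p = 0.046) and Syt13 at -0.25 ± 0.07 (adjusted p = 0.024). Stxbp4 signals in AC were 174, 174, 230, 314 and 166, so its difference came from replicates 3 and 4, both high in choroid plexus genes, and YC arrays read 159 to 182. Without all 5 arrays that stand apart, 3 members were called: Vamp5, Stx5 and Stx11. The share of all probe sets called in AC against YC in that fit is not given here. By its F test across the groups, 6 members and 4.62% of all were called.

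The comparisons of ST and LT with AC address the FKBP1b vector together with its lower titer. No member was called in any of them by limma. In ST against AC 0 of 64 passed, as did 0% of all tested probe sets. The count was also 0 in LT against AC (0.075% of all), in the average of the ST and LT groups against AC (0.03%) and in LT against ST (0.0075%). The one-way analysis of the methods with Benjamini-Hochberg adjustment called 0 members in each of the 4. At an unadjusted p under 0.05, 5 members passed in ST against AC (9.82% of all), 9 in LT against AC (12.6%), 3 in the mean of both (10.5%) and 10 in LT against ST (12.4%). Median differences of the members were 0.02, -0.01, 0.01 and -0.04 log2 units in that order. In the average of the ST and LT groups against AC the 95% interval was -1.83% to 4.20% for Snap25 and -3.15% to 4.03% for Syt1, and it lay within ±0.2 log2 units for 14 of the 19 core probe sets and 9406 of all 13339. The corresponding counts were 18 of the 19 and 8566 of all in ST against AC, and 11 of the 19 and 8062 of all in LT against AC.

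Stx3, a plasma membrane syntaxin of dendrites and sensory synapses, had the smallest p of the members in LT against AC. AC arrays read 234, 256, 271, 272 and 292, YC 230 to 248 (median 240), ST 226 to 264 (median 248) and LT 221 to 250 (median 230). All LT arrays were at or under 250, and only AC replicate 1 lay in that range. The highest AC signals, 271, 272 and 292, came from replicates 3, 4 and 5, which are among the arrays that stand apart. The LT difference was -0.19 ± 0.05 (adjusted p = 0.12) and the AC difference from YC 0.14 ± 0.05 (adjusted p = 0.057). The latter passed without AC replicate 1 (0.19, adjusted p = 0.0081) and with the replicate number as a block (adjusted p = 0.046). On leaving out AC replicate 1, 1 member was called in LT against AC and in the mean of both against AC, and it was Stx3, at -0.23 (adjusted p = 0.022) and -0.19 (adjusted p = 0.028). Stx4, a syntaxin of surface secretion, read 436 to 448 in YC (median 440), 491, 500, 470, 428 and 483 in AC, 445 to 503 in ST (median 484.5) and 403 to 452 in LT (median 435.5). It differed across the 4 groups (F test of limma, adjusted p = 0.032). That call was lost without YC replicate 2, 3, 4 or 6, AC replicate 3, ST replicate 3, 4 or 5 or LT replicate 3 or 6, with array medians made equal, with quantile normalization and with the RNA integrity number as a covariate. Its AC difference from YC of 0.11 ± 0.04 (adjusted p = 0.086) passed without AC replicate 4 (0.14, adjusted p = 0.026) and without the 4 choroid-rich arrays (0.16, adjusted p = 0.032). The ST difference from YC, 0.12 ± 0.04, did not pass with all arrays (adjusted p = 0.079). It passed without AC replicate 4 (adjusted p = 0.046), without the choroid-rich arrays (0.043) and without all arrays that stand apart (0.028). It also passed with array weights (0.033) and with only the groups compared (0.039). LT lay 0.15 ± 0.04 under ST (adjusted p = 0.14). Stxbp2, the partner of Stx11, was lower in ST than AC by 0.17 ± 0.07 (adjusted p = 0.43) and higher in LT than ST by 0.21 ± 0.06 (adjusted p = 0.20). Its LT signals, 159 to 193 (median 172.5), overlapped the ST signals of 132 to 168 (median 151).

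Against YC, 2 members were called in ST, Vamp5 and Vamp3, and 4.15% of all probe sets were. In LT it was Vamp5 alone, against 1.03% of all. Vamp3 (cellubrevin), the VAMP of recycling endosomes, read 523 to 580 in YC (median 574.5), 642, 593, 619, 607 and 608 in AC, 592 to 661 in ST (median 634.5) and 580 to 669 in LT (median 596). AC and ST lay wholly above YC, and LT touched it at 580. The differences were 0.16 ± 0.04 for ST (adjusted p = 0.020), 0.12 ± 0.04 for AC (adjusted p = 0.062) and 0.11 ± 0.04 for LT (adjusted p = 0.17). The ST call was lost without YC replicate 2, the lowest of its group (0.14, adjusted p = 0.057), which left 1 member called, and with array medians made equal (0.13, adjusted p = 0.0502). The AC difference passed without LT replicate 5 (adjusted p = 0.045). Syt10, at -0.29 in ST against YC (adjusted p = 0.053), passed in 12 of the 39 settings, among them with array medians made equal and without ST replicate 4 (adjusted p = 0.049), and Stx7 passed without YC replicate 1 (0.11, adjusted p = 0.044). Without AC replicate 5, which enters only through the shared spread, 8 member probe sets were called in ST against YC. Added were Stx5, Stx6, Stx7, 2 of the 3 Stx8 probe sets and Syt10. Syt10 then also passed in LT against YC, at -0.23 ± 0.06 (adjusted p = 0.045), which made 2. The shares of all probe sets called without that array are not given for these comparisons, so the added calls are no result about the members as a set. In LT against YC, Snap25 arrays did not overlap (LT 10883 to 11153) but the difference of -0.05 ± 0.02 did not pass (adjusted p = 0.31). Groups that did not overlap were seen for 4 of 64 members in AC against YC (5.09% of all), for 4 in ST against YC (4.72%) and for 3 in LT against YC (3.33%).

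By the F test across the 4 groups, Vamp5, Stx4, Syt10 and Vamp3 were called, 4 of 64 against 5.46% of all probe sets. This count was sensitive to single arrays. It was 9 without AC replicate 5, where 9.06% of all probe sets were called. Omitting ST replicates 2, 4 and 6 in turn left 2 members (4.11% to 4.72% of all). The same count came from omitting YC replicate 1 (4.36%) and YC replicate 5 (3.97%), each alone. Omitting YC replicates 2, 3, 4 and 6 in turn left 1 member (2.87% to 3.37%). So did omitting AC replicate 3 (3.68%), ST replicates 3 and 5 (4.31% and 4.32%) and LT replicate 6 (4.92%), each alone. For these arrays the share of all probe sets moved in the same direction, so the shifts were not confined to the members. Stx8, an endosomal syntaxin, has 3 probe sets that differed in sign in AC against YC (-0.11, 0.04 and 0.04, none passing), and RefSeq lists Stx8 pseudogenes, so its values are uncertain.

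**Figure D5:**
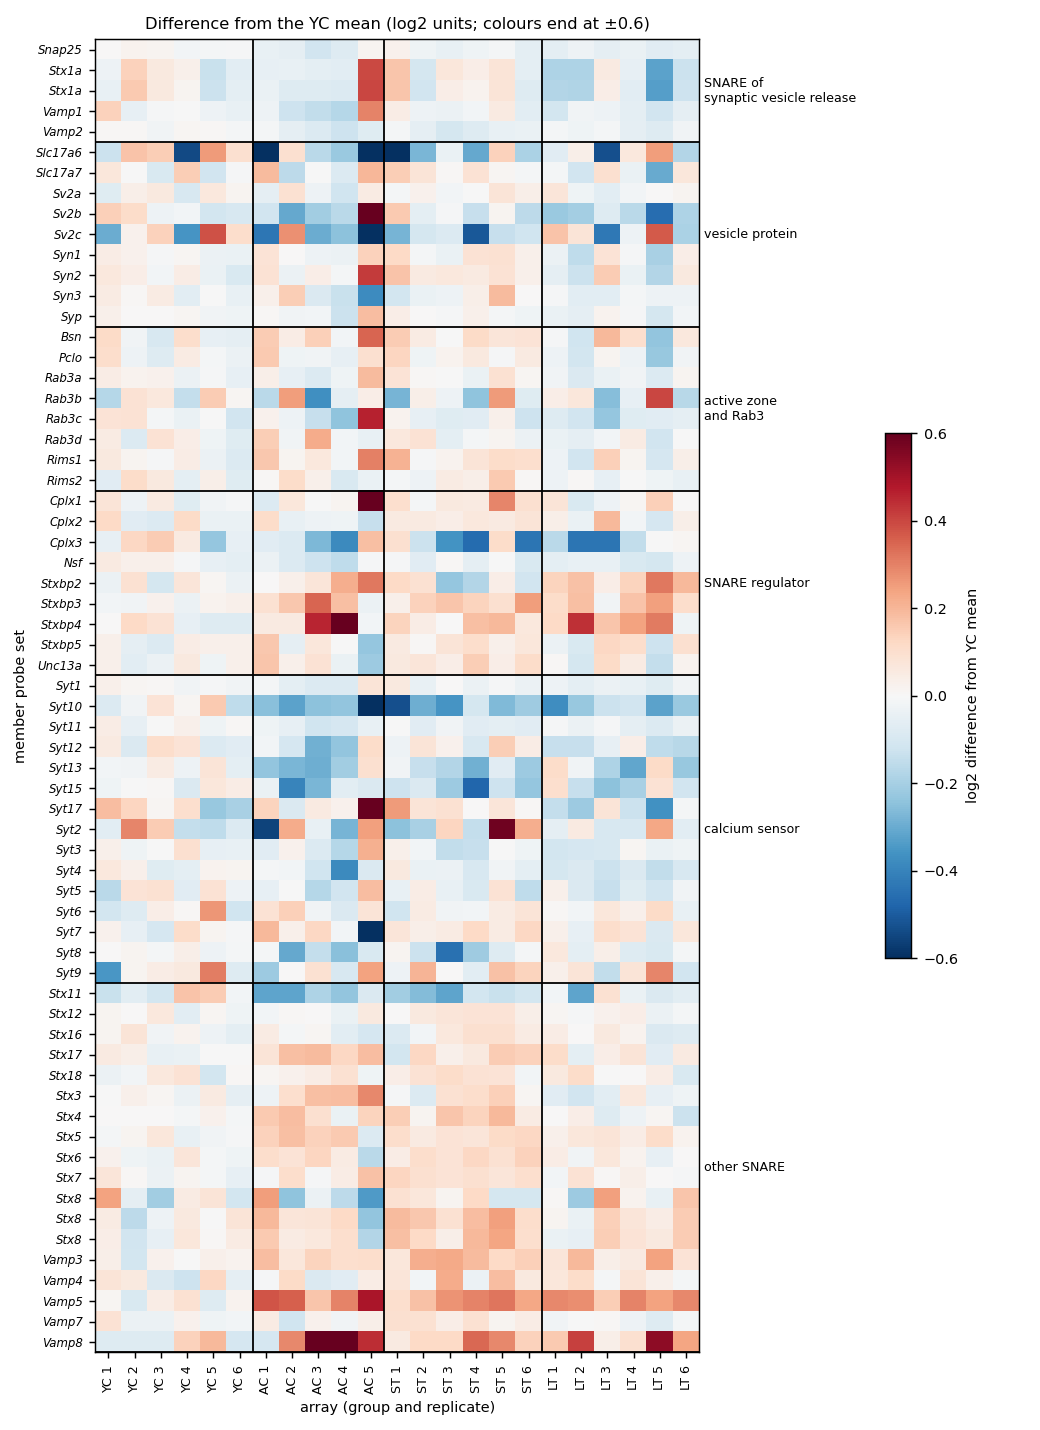
Log2 difference of each tested member probe set (rows, ordered by role) from its YC mean on each of the 23 arrays (columns); red is higher, blue is lower, and colours end at ±0.6. The column of AC replicate 5 stands out across the release genes, and Vamp5 is the only row in which every aged array reads above every YC array.

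The wider set of release and vesicle cycle genes, 78 genes on 90 probe sets that the symbol rule does not reach, had 8 probe sets of 90 called in AC against YC, where 9.75% of all tested were. Of these 4 were higher (5.56% of all) and 4 lower (4.18%). Snap23, the Snap25 relative of cells other than neurons, rose by 0.16 ± 0.03 (adjusted p = 0.0072), Syngr2, a widely expressed synaptogyrin, by 0.21 ± 0.05 (adjusted p = 0.021), and the endocytosis proteins Ston2 and Dnm2 by 0.19 ± 0.05 (adjusted p = 0.027) and 0.11 ± 0.04 (adjusted p = 0.043). Lower were the neuronal synaptogyrin Syngr3 at -0.21 ± 0.05 (adjusted p = 0.012), the scaffold protein Lin7b at -0.22 ± 0.05 (adjusted p = 0.011), the proton pump subunit Atp6v1a at -0.18 ± 0.05 (adjusted p = 0.025) and the chaperone Hspa8 at -0.08 ± 0.02 (adjusted p = 0.049). Syngr3 read 1380 ± 61.0 in YC, 1194 ± 95.1 in AC, 1231 ± 64.6 in ST and 1179 ± 51.8 in LT, and was also called in ST and LT against YC at adjusted p = 0.050 and 0.021. None of the 78 genes was called in ST, LT or their mean against AC. These values are from the fit with all arrays, and how far they rest on the arrays that stand apart was not examined.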

How the data were processed

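The authors deposited 1 signal intensity for each probe set and array, computed with the RMA algorithm in Partek (versions not given in the sources used here). They are unlogged and rounded, with 758 blanks, none among the members, and were used as deposited. Of the probe sets, 15307 carry 1 gene symbol in the platform annotation. Those that reached a signal of 40 on 4 or more arrays, 13339 in number, were tested on the log2 scale with limma 3.58.1 in R 4.3.3 (1 mean for each of the 4 groups, empirical Bayes, Benjamini-Hochberg at 0.05), tested beforehand on simulated data. RMA values of a probe set were compared only between arrays. Intervals are at the 95% level, and the number of arrays limits the precision. Groups come from the labels. Members named are those called in any comparison, those with the smallest p in each, the leading member of each role and the core release genes. Genes named for other reasons were chosen after their values were seen. Members, lists and tests were chosen with earlier results of these data known. Some genes on the role lists, among them Stx2, Stx10, Stxbp5l, Stxbp6, Cplx4, Syt14 and Syt16 were not analysed here. A marker score is the mean over a list of log2 signals centred over the arrays, and 4 arrays above 0.5 in the choroid plexus score were called high. The alternatives, 36 planned and 3 added after seeing the data, covered filters, scaling, array weights, covariates, the methods' one-way ANOVA and each array left out. No scan date was used, as none is in the sources used here.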

Additional observations from a re-analysis of the deposited data

Results flagged for a closer look

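Within each group, the highest or lowest array of 11 member signals lay far from the rest by Dixon's ratio. The ratio was applied to 136 groups of arrays (34 probe sets of the named members in 4 groups), and chance alone flags about 5% of groups. Of the 11, 7 are AC replicate 5. It was highest for Syt17 (1493, others 729 to 849), for both Stx1a probe sets (1531 and 1552, others 1111 to 1146), for Cplx1 (2227, others 1382 to 1537) and for Syn2 (4309, others 3147 to 3428), and lowest for Stx5 (383, others 446 to 460) and Syt10 (160, others 224 to 237).

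The other 4 lie in other groups. Stx4 read 448 on YC replicate 5 where the others read 436 to 440, Vamp3 read 523 on YC replicate 2 where the others read 564 to 580, Syt17 read 923 on ST replicate 1 where the others read 775 to 823, and Cplx1 read 1795 on ST replicate 5 where the others read 1453 to 1572.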

How the results depend on the processing

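Of 311 member counts recomputed under an alternative, 269 stayed within 1.5 times the value reported. These include the comparisons among AC, ST and LT, where the reported count was 0 and a repeated 0 was scored as unchanged. No named value that was called changed sign. Of 9261 named values, 9166 kept their side of the threshold. A change of sign in a value called in neither fit was not counted as a change. The 4 members called by the F test became 2 with no signal filter (4.3% of all) and with array medians made equal (6.28%). They also became 2 with quantile normalization (5.11%) and with the replicate number as a block (3.87%). With array weights they became 12, where 14.5% of all probe sets were called. The 5 called in AC against YC became 3 with a signal minimum of 100, with quantile normalization, with the 4 choroid-rich arrays omitted and without the 5 arrays that stand apart, 9 with array medians made equal, 12 with array weights and 2 with only the groups compared. In AC against YC, 11.3% of all probe sets were called with a signal minimum of 100. The 2 called in ST against YC became 12 with array weights and with only the groups compared. They became 10 without the arrays that stand apart. The 1 in LT against YC became 2 with array weights. Where this section gives no share of all probe sets, a count is no result about the members as a set. Leaving out each array in turn gave 1 to 9 by the F test, 2 to 13 in AC against YC, 0 to 1 in LT against AC and in the mean of both against AC, 1 to 8 in ST against YC and 1 to 2 in LT against YC, and 0 throughout in ST against AC and LT against ST. The cause of these shifts was not tested. Replicate numbers did not pair the arrays (7 of 33 correlations of same-numbered arrays over 0.1, range -0.38 to 0.20), and as a block they gave 7 members in AC against YC, 2 in ST against YC and 1 in LT against YC. Stx11 and Vamp8 lie nearest to the signal minimum of 40, which limits what can be seen in them.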
